A study of Homo sapiens with 6 samples.

Results

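NEAT1 and MALAT1, both long non-coding RNAs kept in the nucleus, and 4 genes for paraspeckle proteins, SFPQ, NONO, PSPC1 and RBM14, were described in A2780 cells treated with an inhibitor of PRMT5. These 6 genes were taken by symbol from a table of 24054 genes, and all 6 passed the low-count filter. They were selected on the counts of this same treatment comparison, whose results were known, so their own differences are given as a description with no test. RNA was sequenced from 6 samples of A2780, an established human ovarian cancer line of wild-type genotype per the labels. Of these, 3 were treated with SCR-6920 at 1 µM for 48 h and 3 are titled control; the labels name no vehicle and no duration for the controls. The series title names SCR-6920 as an inhibitor of PRMT5, which places symmetric dimethyl marks on arginine. The labels do not say whether replicates came from separate cultures, so the errors and p-values measure the spread between these samples, which may be technical.

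Paraspeckles are nuclear bodies built on the long isoform of NEAT1. SFPQ, NONO and PSPC1 form the DBHS family of RNA-binding proteins, which pair with one another and coat that RNA, and RBM14 is a prion-like protein needed for the bodies to assemble. NEAT1 also has a short polyadenylated isoform that shares the first part of the long one and does not build paraspeckles by itself. MALAT1 is transcribed from the neighbouring locus and collects at nuclear speckles, the stores of splicing factors. The long NEAT1 isoform and MALAT1 are cut at the 3′ end by RNase P, and an RNA triple helix protects that end in place of a poly(A) tail.

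The 3′ ends are shown because the libraries were made with an mRNA kit that selects polyadenylated RNA, so the form of the end bears on which isoforms were captured. The last 60 bases of 3 transcripts from GENCODE release 29 follow, on the transcript strand, with the polyadenylation signal AATAAA or the A-rich end in capitals.
NEAT1 short isoform of 2994 bases: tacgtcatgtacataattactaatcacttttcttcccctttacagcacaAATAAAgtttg
NEAT1 long isoform of 22743 bases: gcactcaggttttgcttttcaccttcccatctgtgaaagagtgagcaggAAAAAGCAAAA
MALAT1 transcript of 8708 bases: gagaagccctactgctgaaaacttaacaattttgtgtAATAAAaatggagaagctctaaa
AATAAA began 11 bases from the end of the short NEAT1 transcript and 23 bases from the end of the MALAT1 transcript. GENCODE lists other short NEAT1 transcripts, among them 1 of 3524 bases, whose ends are not shown. The long NEAT1 transcript held no AATAAA in its last 60 bases and ended in an A-rich tract of 11 bases. The MALAT1 transcript shown did not end in such a tract, so the end shown may not be the one that RNase P leaves. Other MALAT1 transcripts are listed too, among them 1 of 587 bases, and their ends are not shown. Searched on the transcript strand only, AATAAA was present in the last 60 bases of 23.5% of 55704 long non-coding transcripts in that release. Gene counts do not separate the isoforms, and how many counts came from each was not tested.

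Promoter windows from RefSeq (GRCh38.p14), 250 bases before to 50 after the start, were at hand for 4 of the 6 genes: MALAT1, NONO, PSPC1 and RBM14. No window was used for NEAT1 or SFPQ. Shown are chr11:65497488-65497787 on the plus strand, the MALAT1 window lying farther upstream, and chrX:71283385-71283684 on the plus strand, the NONO window. They were chosen because levels of these 2 genes differed between the groups in opposite directions. Capitals mark ACGTG and GCGTG, the core letters of hypoxia response elements, the GC box GGGCGG, the CCAAT box and TATAAA, each searched on both strands.
MALAT1: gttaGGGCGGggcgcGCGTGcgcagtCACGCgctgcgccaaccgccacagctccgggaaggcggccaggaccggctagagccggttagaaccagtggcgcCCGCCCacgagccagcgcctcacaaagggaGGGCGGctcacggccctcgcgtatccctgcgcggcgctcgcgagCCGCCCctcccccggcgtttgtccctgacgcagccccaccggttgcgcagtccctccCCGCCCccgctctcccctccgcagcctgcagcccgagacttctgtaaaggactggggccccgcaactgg
NONO: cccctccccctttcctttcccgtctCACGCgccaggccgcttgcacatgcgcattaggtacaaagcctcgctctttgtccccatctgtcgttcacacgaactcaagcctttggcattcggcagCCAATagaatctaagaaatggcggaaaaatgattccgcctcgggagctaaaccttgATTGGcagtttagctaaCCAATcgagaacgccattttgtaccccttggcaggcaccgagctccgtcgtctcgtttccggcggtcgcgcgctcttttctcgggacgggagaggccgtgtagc
The MALAT1 window shown held 5 matches to GGGCGG and 2 to GCGTG. Its GC content was 73.7%, against a median of 58.7% over 35116 windows. The NONO window held 3 matches to CCAAT and 1 to GCGTG. No marked motifs overlapped in either window. Another MALAT1 window, chr11:65498795-65499094 on the plus strand, is not shown. Its GC content was 46.0%, and it held 1 match to GCGTG, 1 to TATAAA and none to GGGCGG. None of the windows of the 4 genes held ACGTG. Over all windows, GGGCGG was present in 45.0%, GCGTG in 36.5%, CCAAT in 34.6%, ACGTG in 21.4% and TATAAA in 11.5%. A match is a description of the letters and not a bound site.

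Total counts ran from 38149448 to 39749993 per sample, and scaling factors for composition from 0.993 to 1.005. The 2 non-coding RNAs together made up 0.0226% ± 0.0011 of counts in controls and 0.0140% ± 0.0004 in SCR-6920 (SD, n = 3 each). Markers listed for ovarian and epithelial cells were scarce in this line: of 11 in the table, 7 had at most 10 counts in every sample and KRT7 and ESR1 had none, and their summed level was 4.79 to 5.67 CPM in controls and 7.05 to 9.14 CPM in SCR-6920. Of 5 leukocyte markers, PTPRC had no count in any sample and CD68 alone exceeded 10 counts in any; their summed level ran from 2.97 to 3.32 CPM in controls and from 1.86 to 2.44 CPM in SCR-6920, lower in every treated sample. Of 3 endothelial markers, CDH5 and VWF had no count in any sample, and the summed level was 0 CPM in controls and at most 0.0259 CPM in SCR-6920. The summed fibroblast markers, which include collagen genes, ran from 354 to 360.0 CPM in controls and from 375 to 385 CPM in SCR-6920. The part of these shifts in the results was not tested.

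NEAT1, whose long isoform is the scaffold of paraspeckles, was lower in treated cells, at 0.542 times its control level. That is the level of the whole gene, and whether the long isoform, the short one or both were lower was not tested. The controls, replicates 1 to 3, gave 4556, 4471 and 4346 counts, whereas treatment gave 2226, 2358 and 2422. As CPM, the counts scaled to a common library size, the control samples held 115, 114 and 109, and the treated samples 58.3, 61.4 and 63.5. All 3 treated samples lay below all 3 controls, and the gap between the groups was larger than the range within either. The fitted log2 fold change was -0.88 ± 0.044 (SE, n = 3 per group). Of the 14233 genes tested, 2.96% had a lower fold change. In these bulk samples, fewer cells that make an RNA and less of it per cell cannot be told apart.

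MALAT1, the RNA of nuclear speckles, was also lower in treated cells, by less. The controls gave 4819, 4334 and 4211 counts, and the treated samples 3155, 2913 and 3084. The corresponding CPM were 122, 110.5 and 106 in controls and 82.7, 75.8 and 80.9 in SCR-6920. The groups did not overlap, and control replicate 1 stood above the other controls. The log2 fold change was -0.50 ± 0.048 (SE, n = 3 per group), or 0.709-fold, and 9.30% of tested genes had a lower one. An annotated gene lies on the opposite strand of MALAT1, and with no strand option known for the counting step, reads from that strand cannot be told apart from its own.

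NEAT1 was also lower relative to MALAT1 in treated cells. The controls had NEAT1 to MALAT1 count ratios of 0.945, 1.03 and 1.03, and treated samples ratios of 0.706, 0.809 and 0.785. Every treated sample had the lower ratio, with means of 1.00 ± 0.050 and 0.767 ± 0.054 (SD, n = 3). Among the 1627 tested genes that the deposited table calls non-coding, 99 rose and 203 fell by the edgeR test (adjusted p under 0.05), with a median log2 fold change of -0.11. The median over all 14233 tested genes was -0.0019. By mean CPM over the 6 samples, MALAT1 ranked 11 and NEAT1 ranked 15 among those non-coding genes.

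**Figure D1:**
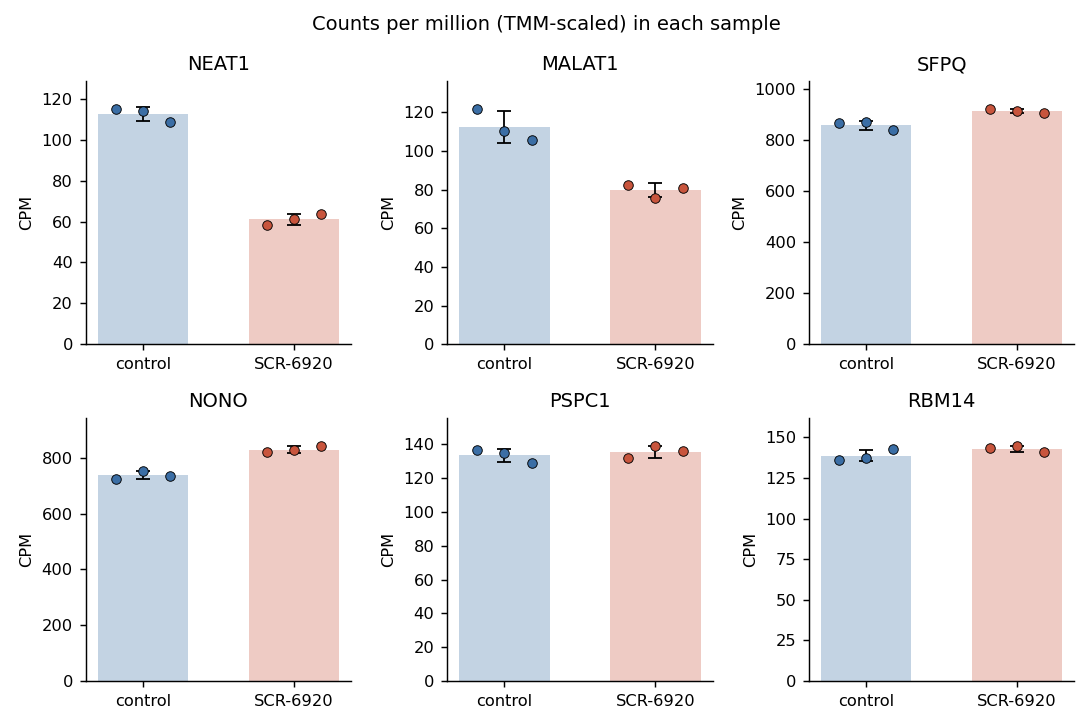
CPM, counts scaled to a common library size (vertical axes, from 0), for the 6 genes. Points are the 3 samples of each group, bars their mean and error bars the SD. NEAT1 and MALAT1 are lower and SFPQ and NONO higher in every SCR-6920 sample, and the groups overlap for PSPC1 and RBM14.

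The DBHS genes SFPQ and NONO were slightly higher in treated cells. SFPQ, which binds RNA and DNA and is needed for NEAT1 to accumulate, had 864, 869 and 837 CPM in controls and 920, 913 and 907 CPM in SCR-6920. Its groups did not overlap, and the log2 fold change was 0.09 ± 0.023 (SE, n = 3 per group), a difference of 6.58%. NONO, the usual partner of SFPQ, had 725, 754 and 734 CPM in controls and 820.3, 827 and 843 CPM in SCR-6920. All treated samples were above all controls, with a log2 fold change of 0.17 ± 0.024 or a difference of 12.5%. Of all tested genes, 64.0% had a lower fold change than SFPQ and 74.0% a lower one than NONO.

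PSPC1 and RBM14 had overlapping groups. PSPC1, the DBHS gene with the lowest FPKM, had 137, 135 and 129 CPM in controls and 132, 139 and 136 CPM in SCR-6920, with a log2 fold change of 0.02 ± 0.037. Without control replicate 3 the sign of that value changed, to -0.0014. RBM14 had 136, 137 and 143 CPM in controls and 144, 145 and 141 CPM in SCR-6920, with a log2 fold change of 0.04 ± 0.035. For both genes the lowest sample was a control and the highest a treated one, with the others mixed. PSPC1 has an annotated antisense gene, and RBM14 shares its exons with an annotated readthrough transcript into RBM4, so their counts are uncertain to that extent.

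Of the 6 genes, 4 passed an adjusted p under 0.05 in the edgeR fit over all genes, 2 higher and 2 lower, and the groups did not overlap for the same 4. Over all tested genes 42.0% passed, 20.6% higher and 21.3% lower, and the groups did not overlap for 50.6%, with 24.9% higher and 25.8% lower. As the genes were chosen with this comparison known, nothing is read from their count. The coefficient of variation of CPM in controls was 2.87% for NEAT1 and 7.32% for MALAT1, against a counting error of 1.48% to 1.52% for NEAT1 and 1.44% to 1.54% for MALAT1. For SFPQ and NONO, both at or above 28734 counts in every sample, it was 1.99% and 1.97%.

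Levels of different genes were compared per gene length, with the deposited FPKM (fragments per kilobase of gene, scaled to the library total). In controls the order was NONO at 267 ± 5.0, SFPQ at 96.1 ± 1.9, RBM14 at 25.9 ± 0.65, PSPC1 at 13.4 ± 0.41, MALAT1 at 12.9 ± 0.95 and NEAT1 at 4.97 ± 0.15 FPKM (SD, n = 3). Only PSPC1 and MALAT1 could not be ordered there, as PSPC1 ran from 12.98 to 13.8 and MALAT1 from 12.1 to 13.9 FPKM. In SCR-6920 samples PSPC1, at 13.1 to 13.9 FPKM, lay above MALAT1, at 8.59 to 9.35 FPKM, with no overlap. The order of the other genes was the same in both groups. NONO supplied 70.9% ± 0.50 of the summed DBHS FPKM in controls and 72.1% ± 0.38 in SCR-6920, SFPQ 25.5% ± 0.39 and 24.6% ± 0.39, and PSPC1 3.57% ± 0.11 and 3.28% ± 0.079. The summed FPKM of the 3 DBHS genes was 75.7 ± 2.0 times that of NEAT1 in controls and 155 ± 5.4 times in SCR-6920. The kit selects polyadenylated RNA, so RNAs that end without a poly(A) tail may be undercounted in these comparisons between genes. How far was not tested.

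The place of NEAT1 in that order and the ratio of DBHS genes to NEAT1 depend on the length used, and both would differ with a shorter one. The deposited FPKM values imply a length of 22743 bases for NEAT1, which equals the long NEAT1 transcript, and 8779 bases for MALAT1, which equals its RefSeq span. Divided instead by 3524 bases, the longest short NEAT1 transcript in GENCODE, its level was 32.1 FPKM in controls and 17.3 FPKM in SCR-6920. NEAT1 then lay above RBM14 in every control sample and below it in every SCR-6920 sample, and above PSPC1 and MALAT1 in all 6. This setting was chosen after the values were seen, and it leaves the fold change as it was.

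**Figure D2:**
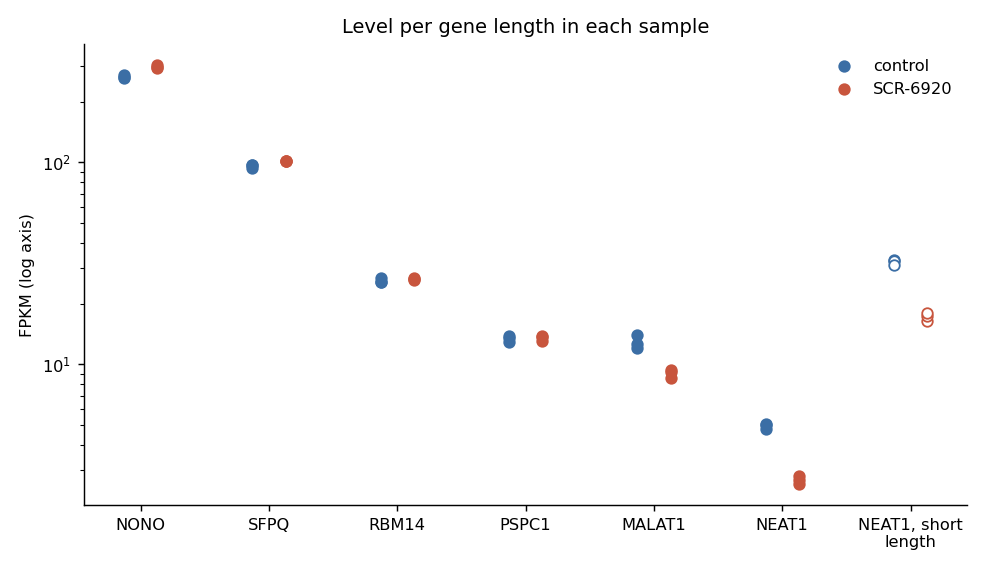
FPKM per sample on a log axis for the 6 genes, ordered by their mean in controls, with 3 points per group. Open points show NEAT1 divided by 3524 bases in place of 22743. PSPC1 and MALAT1 overlap in controls and not in SCR-6920.

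Genes with the profile most like NEAT1 and MALAT1 were found by the root mean square difference of mean-centred log2 CPM over the 6 samples, among 10216 other genes averaging 5 CPM or more. Nearest to NEAT1 were BOK, a BCL2 family gene, at 0.049, NBEAL2 at 0.050 and RRM2, a ribonucleotide reductase subunit, at 0.050. Their log2 fold changes were -0.82, -0.85 and -0.92. Nearest to MALAT1 were BARD1, the partner of BRCA1, at 0.038, ALDH16A1 at 0.043 and RABAC1 at 0.044, with log2 fold changes of -0.45, -0.46 and -0.54. The difference between NEAT1 and MALAT1 themselves was 0.208, which placed MALAT1 at rank 433 by nearness to NEAT1. These genes share the libraries and the contrast with NEAT1 and MALAT1, so their likeness is a description.

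NEAT1 and MALAT1 are neighbours on chromosome 11, and the 6 nearest tested genes on each side changed in no single direction. Of the 12, 5 fell, 1 rose and 6 did not pass (edgeR, adjusted p under 0.05), beside 21.3% lower and 20.6% higher over all genes, and their median log2 fold change was -0.019. None of 3 genes annotated between NEAT1 and MALAT1 was used here. The gene next to NEAT1, FRMD8, had 22.7 ± 0.80 CPM in controls and 24.5 ± 1.3 CPM in SCR-6920 (SD, n = 3), a log2 fold change of 0.11 ± 0.074 (adjusted p = 0.236, edgeR). Farther out on that side SLC25A45, TIGD3 and the chromatin reader gene DPF2 did not pass, while CDC42EP2 fell by 0.55 ± 0.11 and POLA2, the accessory subunit of DNA polymerase alpha, by 0.63 ± 0.050 on the log2 scale. DPF2, at 0.09, passed without control replicate 3 (adjusted p = 0.0427, edgeR).

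On the other side ZNRD2 fell by 0.30 ± 0.087 on the log2 scale, from 19.4 ± 0.74 to 15.7 ± 1.4 CPM (SD, n = 3), and EHBP1L1 by 0.14 ± 0.046. LTBP3, which encodes a binding protein of latent TGF-beta, rose by 0.15 ± 0.062 (adjusted p = 0.0467, edgeR), in groups that overlapped. That call was lost when control replicate 2 or 3 was left out (0.121 and 0.147) and when treated replicate 2 or 3 was (0.396 and 0.0502); the count of neighbours that rose was then 0, except without control replicate 3, when DPF2 passed. EHBP1L1 lost its call without control replicate 3 or treated replicate 1 (0.0704 and 0.082). ZNRD2-DT and FAM89B did not pass, at 0.41 ± 0.48 and -0.11 ± 0.069.

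**Figure D3:**
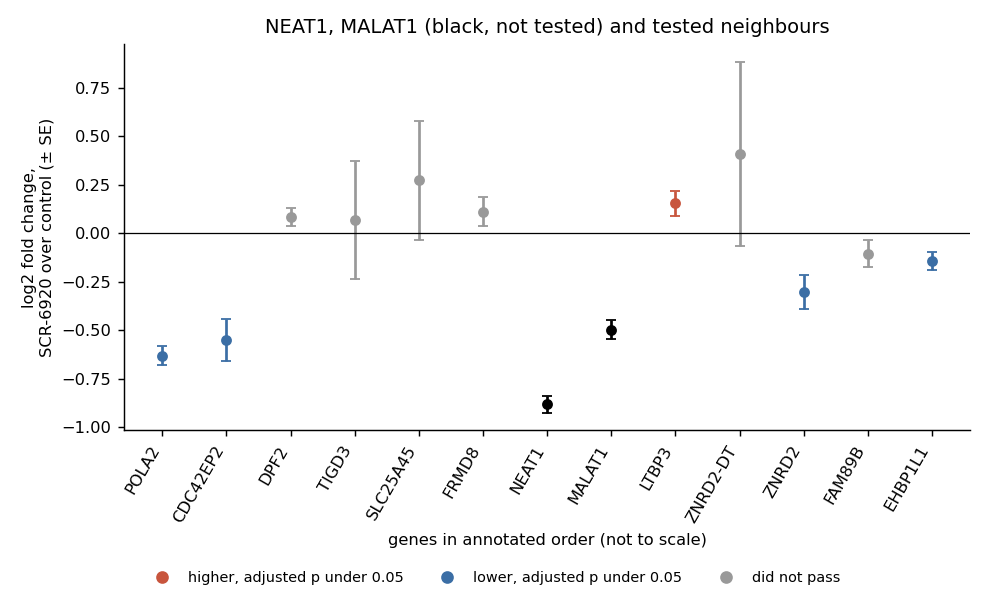
Log2 fold change of SCR-6920 over control with its SE (vertical axis) for NEAT1, MALAT1 and the nearest tested genes reported here, in annotated order with distances not to scale. Colours give the edgeR call, and black marks NEAT1 and MALAT1, which are described and not tested. FRMD8, next to NEAT1, lies at 0.11, and POLA2 is the lowest neighbour shown, at -0.63.

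Other proteins reported in paraspeckles moved both ways, led by a fall in TAF15. Of 41 listed genes 37 were tested, and 10 rose, 12 fell and 15 did not pass (edgeR, adjusted p under 0.05). The share that passed was 59.5%, beside 42.0% of all genes, and the median log2 fold change was -0.026, beside -0.0019. For 35 of the 37 the difference was under 1.5-fold, the exceptions being TAF15 and ENOX1, which had a mean of 11.3 counts and did not pass (log2 0.91 ± 0.64, adjusted p = 0.270, edgeR) and was named after its value was seen. TAF15, an RNA-binding protein of the FET family, fell from 328 ± 12 to 136 ± 1.9 CPM (SD, n = 3), to 0.416-fold (log2 -1.27 ± 0.032 SE, adjusted p = 1.45e-24, edgeR). The FET gene EWSR1 fell by 0.31 ± 0.025, from 521 ± 3.4 to 419 ± 5.6 CPM.

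RBM12 fell by 0.22 ± 0.031 on the log2 scale. Among those that rose, HNRNPH3, a splicing regulator, did so by 0.25 ± 0.028, the cold-inducible RBM3 by 0.23 ± 0.026 and HNRNPA1, a splicing repressor, by 0.10 ± 0.020. The genes reported to set the balance of NEAT1 isoforms were also on this list and were named after their values were seen. CPSF6, a cleavage factor subunit that favours the short isoform, fell by 0.19 ± 0.040, from 267 ± 19 to 234 ± 2.3 CPM (adjusted p = 0.000866, edgeR). Its partner NUDT21 had a log2 fold change of 0.06 ± 0.049 (adjusted p = 0.415), and HNRNPK, which favours the long isoform, one of -0.026 ± 0.022 (adjusted p = 0.365).

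**Figure D4:**
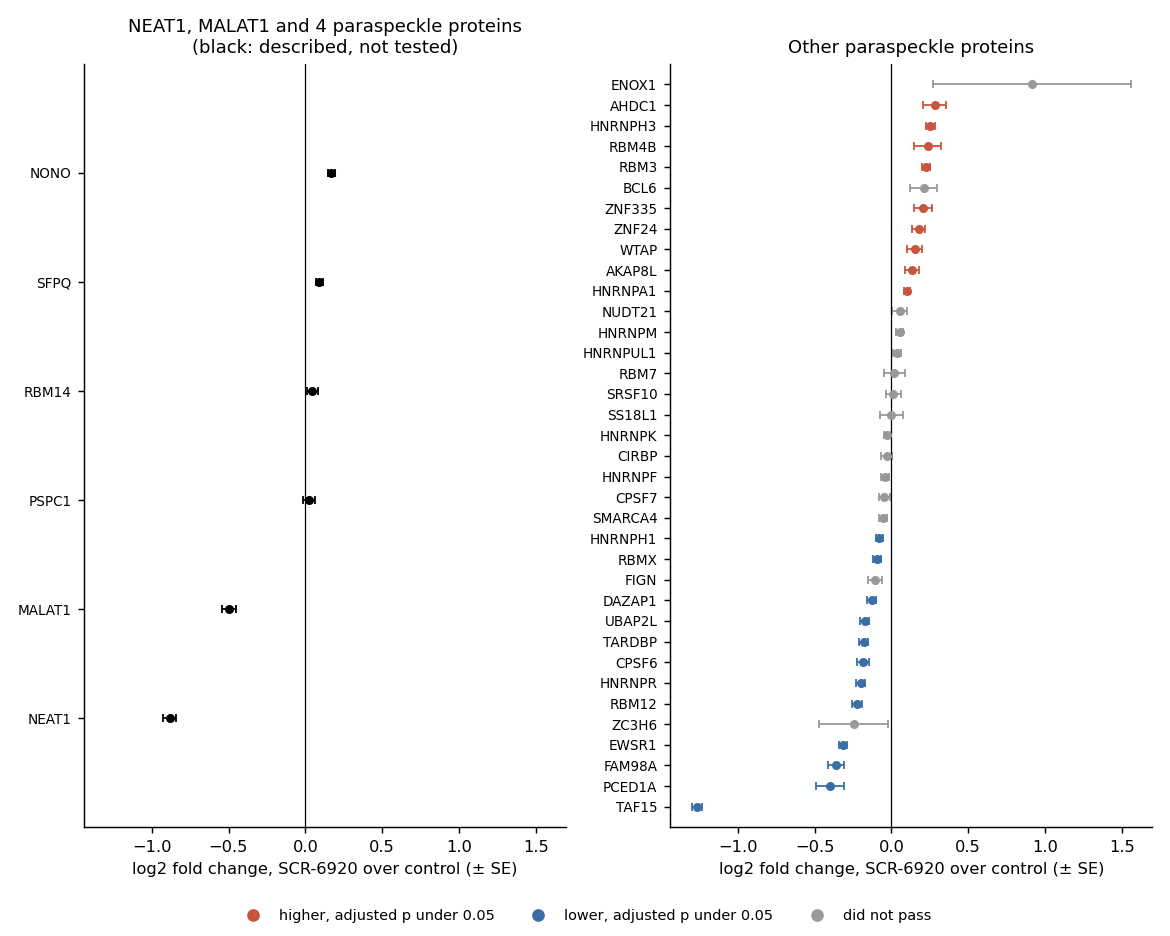
Log2 fold change of SCR-6920 over control with its SE (horizontal axis) for the 6 genes on the left and the tested genes of other paraspeckle proteins reported here on the right. Colours give the edgeR call, and black marks genes that are described and not tested. TAF15, at -1.27, is farther below 0 than NEAT1, at -0.88.

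RNase P and its partners, which form and tend the 3′ ends of the long NEAT1 isoform and MALAT1, included several genes that fell. Of 12 tested genes, 6 fell, 2 rose and 4 did not pass (edgeR, adjusted p under 0.05), with a median log2 fold change of -0.27, beside -0.0019 over all genes; 66.7% passed, beside 42.0% of all genes. The RNase P subunit gene POP5 fell by 0.65 ± 0.074, from 31.4 ± 2.8 to 19.99 ± 0.21 CPM (SD, n = 3), and the subunit gene POP7 by 0.41 ± 0.053. TRNT1, which adds the CCA end to tRNA-like RNAs, fell by 0.52 ± 0.064. METTL16, an RNA methyltransferase that binds the MALAT1 triple helix, rose by 0.46 ± 0.042, from 80.3 ± 3.5 to 111 ± 2.4 CPM. The subunit gene RPP38 rose by 0.16 ± 0.066 (adjusted p = 0.0495, edgeR), but it did not pass without control replicate 1 or 3 (0.227 and 0.1001), nor without any 1 of the treated replicates 1 to 3 (0.0978, 0.142 and 0.0929), which leaves 1 that rose. ELAC2, which encodes RNase Z, had a log2 fold change of -0.016 ± 0.041 (adjusted p = 0.786) and was named after its value was seen.

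Genes of nuclear speckle proteins, the bodies where MALAT1 resides, moved mostly upward where they passed. Of 27 tested genes, 14 rose, 2 fell and 11 did not pass (edgeR, adjusted p under 0.05), with a median log2 fold change of 0.13, beside -0.0019 over all genes; 59.3% passed, beside 42.0%, and all 27 differences were under 1.5-fold. The splicing coactivator gene SRRM1 rose by 0.44 ± 0.029, from 238 ± 2.9 to 323 ± 4.7 CPM (SD, n = 3). THOC2, of the complex that exports mRNA, rose by 0.39 ± 0.034 and ACIN1 by 0.27 ± 0.028. EIF4A3, a helicase of the exon junction complex, fell by 0.12 ± 0.038, but not without control replicate 2, treated replicate 1 or treated replicate 2 (adjusted p of 0.0508, 0.0623 and 0.0669, edgeR). The kinase gene DYRK3 fell by 0.17 ± 0.059, but not without control replicate 2 or treated replicate 3 (0.102 and 0.062). The number that fell was 0 without control replicate 2 and 1 when any single treated sample was left out.

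Other long non-coding RNAs moved in both directions. Of 19 tested, 4 rose, 6 fell and 9 did not pass (edgeR, adjusted p under 0.05). Their median log2 fold change was -0.14, beside -0.11 for all tested non-coding genes. The share that passed was 52.6%, beside 42.0% of all genes. Among the 1627 tested non-coding genes 99 rose and 203 fell, a lower share than over all genes. OIP5-AS1, a widely expressed long non-coding RNA, fell from 139 ± 1.3 to 79.8 ± 2.9 CPM (SD, n = 3), to 0.575-fold (log2 -0.80 ± 0.039 SE). KCNQ1OT1, the antisense RNA of an imprinted domain, fell by 0.54 ± 0.069 and JPX by 0.54 ± 0.15. The imprinted RNA H19 rose by 1.03 ± 0.12, from 5.68 ± 0.52 to 11.6 ± 0.72 CPM. MIR22HG, a microRNA host gene, rose by 0.67 ± 0.12 and the snoRNA host gene ZFAS1 by 0.22 ± 0.050. Values of OIP5-AS1, KCNQ1OT1 and ZFAS1 may include reads of genes on the opposite strand, as for MALAT1.

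**Figure D5:**
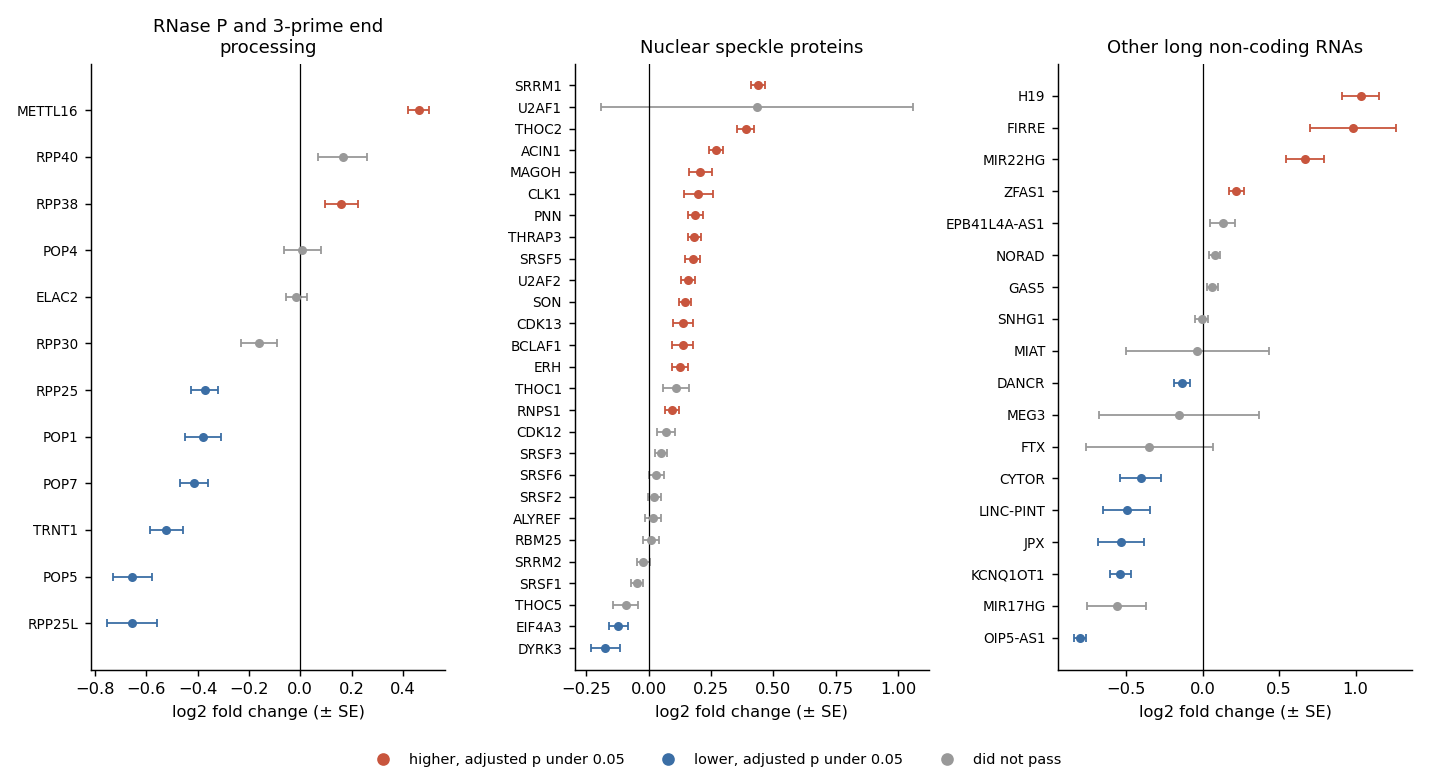
Log2 fold change of SCR-6920 over control with its SE (horizontal axes, scaled separately) for the tested genes of 3 lists that are reported here. Colours give the edgeR call. METTL16, at 0.46, stands apart from the RNase P subunit genes that fell, and OIP5-AS1, at -0.80, is the lowest of the long non-coding RNAs listed.

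Not all of the listed transcription factors reported to act on NEAT1 are given here, so no direction is read from the list. BRCA1 fell by 0.46 ± 0.041 on the log2 scale, from 107 ± 2.6 to 77.7 ± 1.4 CPM (SD, n = 3). The heat shock factor gene HSF1 fell by 0.21 ± 0.054. Both passed (edgeR, adjusted p under 0.05), beside 21.3% lower over all tested genes. ATF2 had a log2 fold change of -0.04 ± 0.049 (adjusted p = 0.511, edgeR). EPAS1, the HIF-2α subunit, had a mean of 7.33 counts per sample and was not tested.

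Of 5 genes of arginine methylation that acts on these proteins, PRMT1 fell and 4 did not pass (edgeR, adjusted p under 0.05), beside 42.0% called and 21.3% lower over all tested genes. Their median log2 fold change was 0.015, beside -0.0019 over all genes. PRMT1 fell by 0.26 ± 0.029 on the log2 scale, from 315 ± 6.9 to 262 ± 3.1 CPM (SD, n = 3). CARM1, which methylates NONO, had a log2 fold change of -0.06 ± 0.034 (adjusted p = 0.126, edgeR) and passed without control replicate 1 (0.0249), which makes 2 that fell. PRMT5, the target of the compound, and its cofactors WDR77 and CLNS1A had log2 fold changes of 0.02 ± 0.033, 0.02 ± 0.048 and 0.06 ± 0.036. The counts measure mRNA and not the methylation or amount of any protein.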

How the data were processed

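Libraries were prepared from column-purified RNA with a stranded kit from Illumina for mRNA, per the labels' protocols. HISAT2 and HTSeq are listed, with the build GRCm38, per the submitters' processing notes, which state no versions, annotation or strand option. Since GRCm38 is a mouse assembly and the genes are human, the build used is unclear and no coordinates come from the files.

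The authors deposited raw counts per gene and FPKM values. Dividing each count by its library total and by 1 length per gene gave the deposited FPKM for all 21442 genes above 0 (relative tolerance 1e-06).

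Counts were fitted in R 4.3.3 with edgeR 4.0.16 (filterByExpr, TMM, robust glmQLFit and glmQLFTest, group as the only term) over 14233 genes, with Benjamini-Hochberg adjustment and a threshold of 0.05. The SE of a log2 fold change came from its F statistic. The script was tested on simulated data. Alternatives were RLE factors, library size only, no filter, a stricter filter (mean of 1 CPM and 10 counts in 3 samples), a replicate block, DESeq2 1.42.0, limma-trend (limma 3.58.1) for genes averaging 0.5 FPKM, on the log2 scale after adding 1 or 0.1, and leaving out each sample.

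The 6 genes and the 6 gene lists were chosen with earlier results of these data known. Named genes were the 6; all genes of lists of 5, of longer lists, the 3 smallest p-values in each direction among calls; the 3 profiles nearest to NEAT1 and to MALAT1; and the 6 nearest tested genes on each side. No other symbol in the table held the name of one of the 6. FPKM were taken from the table as deposited. SCR-6920 samples were compared with the samples titled control. Some genes the rule names are not reported here.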

Additional observations from a re-analysis of the deposited data

How the results depend on the processing

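The number of genes called over the whole table was 5976 and stayed within 1.5 times of that under all 14 alternatives, from 5190 to 5936 without 1 sample. The log2 fold changes of the 6 genes moved by less than the spread between replicates under all of them, except that NEAT1 was at -0.70 by limma on log2(FPKM + 1), where the added 1 is large beside its FPKM. Without 1 sample, NEAT1 ran from -0.91 to -0.86, MALAT1 from -0.54 to -0.44, SFPQ from 0.07 to 0.10, NONO from 0.16 to 0.19, PSPC1 from -0.0014 to 0.04 and RBM14 from 0.03 to 0.06. The level of NEAT1 per length, 4.97 FPKM in controls and 2.67 in SCR-6920, was 32.1 and 17.3 with the short length.

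On the list of RNase P and its partners, RPP38 lost its call with library size only, DESeq2 and limma on log2(FPKM + 1) and log2(FPKM + 0.1). The genes of that list that rose were then 1 in place of 2, and 1 to 2 without 1 sample. The neighbours that rose were 0 in place of 1 under the same 4 settings, and 0 to 1 without 1 sample. The nuclear speckle genes that fell were 0 to 3 without 1 sample, and the arginine methylation genes called, all lower, 1 to 2. The cause was not tested. Of 43 named genes tested, 7 gained or lost a call under some alternative. None changed sign while holding a call in either fit. Some without a call did change sign when 1 sample was left out. Among them were ATF2 (log2 fold change from -0.043 to 0.023), PRMT5 (0.018 to -0.0072) and WDR77 (0.015 to -0.045).

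Deviations from the group means correlated at 0.117, 0.029 and 0.088 between samples of the same number. Treated replicates 1 and 3 correlated best with the control of the same number, and treated replicate 2 with control replicate 3. Whether samples of the same number share a culture or batch was not tested, and the labels give them only a number. With the replicate block 6144 genes were called, against 5976 without it. Depth limits the text to genes past the low-count filter.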
